A study of Rattus norvegicus with 29 samples.

Results

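Arc, Homer1, Nptx1, Nptx2, Nptxr, Plk2 and Ptgs2 encode proteins that act at the synapse, and most of them are transcribed more when neurons fire. They were followed in the rat basolateral amygdala, through every probe set annotated to 1 of these 7 symbols and to no other gene. The array holds 11 such probe sets among 15866, and they cover 6 of the 7 genes, out of 10411 genes with a probe set of their own: 5 for Homer1, 2 for Nptxr and 1 each for Arc, Nptx1, Plk2 and Ptgs2. Nptx2 had none in the annotation used and was not analysed here. Of the 11 probe sets, 7 were bright enough to be tested with the 9520 that passed the filter on low signal. The other 4 (Homer1 1368319_a_at and 1370997_at, Nptxr 1387481_at and Ptgs2 1368527_at) are reported from a second fit over all 15866 probe sets. The mean of Ptgs2, 7.26 on the log2 scale, fell just under the filter.

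The 29 one-colour arrays form 5 groups of rats. There are 5 arrays each for pain, for isoflurane, for fear conditioning (below, conditioning) and for conditioning while under isoflurane, all taken 6 h after the treatment, and 9 baseline control arrays for which no time is given. Pain is a component of conditioning, and isoflurane is an inhaled anaesthetic that can block memory formation. The labels give no strain, sex, age or dose. Numbers of individual rats are given for the 15 arrays of the pain and both conditioning groups. The 14 isoflurane and baseline arrays carry none and are not stated to come from separate animals, so p-values that use them measure the spread between arrays, which may be technical there. The labels of 14 arrays, those of the isoflurane and baseline groups, name an ENZO labelling kit, and those of the other 15 name none. A difference in labelling thus cannot be told apart from pain, conditioning or conditioning under isoflurane set against baseline. The isoflurane arrays are numbered apart from all other groups in the deposit, so a separate run, if any, cannot be told apart from isoflurane.

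Immediate-early effector genes answer synaptic activity with new messenger RNA within minutes to hours. Arc protein joins the endocytic machinery and removes AMPA-type glutamate receptors from the synapse. Homer1 gives long forms that tie group I metabotropic glutamate receptors to Shank scaffolds and a short, activity-induced form that loosens this tie. The neuronal pentraxins gather AMPA receptors from outside the cell, Plk2 is a kinase that scales excitatory synapses down after strong activity, and Ptgs2 makes the prostaglandin precursor PGH from arachidonic acid. In the amygdala, Arc is widely used to mark neurons active during fear learning. In all such bulk tissue, fewer expressing cells and less RNA per cell cannot be told apart.

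The genes lie on rat chromosomes 2 (Homer1, Plk2), 7 (Arc, Nptxr), 10 (Nptx1), 12 (Nptx2) and 13 (Ptgs2) of the GRCr8 assembly. RefSeq promoter sequence of that assembly, 250 bases before to 50 after the gene's start, was at hand for Homer1, Nptx2, Plk2 and Ptgs2. It was searched on both strands for the cyclic AMP response element (CRE, TGACGTCA), its shorter core TGACG, the AP-1 site TGANTCA, the CArG box bound by serum response factor and the TATA box TATAAA. The first 4 are elements through which neuronal activity is known to reach immediate-early genes, the TATA box is a general core promoter element, and the core lies within the full CRE. The promoters of Plk2, which carries the full element, and of Homer1 and Ptgs2, the genes with the largest differences below, read 5′ to 3′, with the CRE in capitals:
Plk2 chr2:43702286-43702585 (+): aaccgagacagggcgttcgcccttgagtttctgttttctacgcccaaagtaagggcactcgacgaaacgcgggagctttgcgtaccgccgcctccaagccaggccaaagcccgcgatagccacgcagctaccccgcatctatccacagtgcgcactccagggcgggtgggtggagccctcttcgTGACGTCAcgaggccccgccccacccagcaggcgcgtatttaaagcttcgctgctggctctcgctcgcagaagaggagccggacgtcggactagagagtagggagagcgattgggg
Homer1 chr2:26278762-26279061 (+): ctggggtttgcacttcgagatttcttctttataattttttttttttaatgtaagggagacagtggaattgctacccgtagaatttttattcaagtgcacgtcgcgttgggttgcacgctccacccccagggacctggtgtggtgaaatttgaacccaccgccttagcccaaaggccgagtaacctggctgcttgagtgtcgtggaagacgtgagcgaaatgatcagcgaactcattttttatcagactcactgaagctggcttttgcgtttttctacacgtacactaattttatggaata
Ptgs2 chr13:64713813-64714112 (+): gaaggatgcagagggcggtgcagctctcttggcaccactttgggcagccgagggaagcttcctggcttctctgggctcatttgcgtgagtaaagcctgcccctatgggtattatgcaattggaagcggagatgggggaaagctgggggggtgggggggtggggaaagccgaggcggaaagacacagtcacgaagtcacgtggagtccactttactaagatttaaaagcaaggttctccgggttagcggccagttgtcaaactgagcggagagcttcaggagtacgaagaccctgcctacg
The Plk2 window held a CRE that begins 66 bases before the start, as did 1.83% of 33469 rat promoters of the same length for this motif anywhere in the window. The Nptx2 window held the core alone, 90 bases before the start, a motif found in 21.2% of promoters. The Homer1 window held TATAAA only on the strand opposite to the gene, 223 bases before the start (14.2% of promoters). In the printed strand it reads tttata, so no TATAAA stands in the direction of the gene. The Ptgs2 window held none of the 5 motifs, which says only that these letters are not in it. AP-1 sites and CArG boxes, present in 7.33% and 1.64% of promoters, were in none of the 4 windows.

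None of the 6 measured genes passed the test in any comparison. In limma fits over all probe sets with Benjamini-Hochberg adjustment at 0.05, 0 of 7 tested member probe sets were called in pain, isoflurane, conditioning or conditioning under isoflurane against baseline, and 0 of 11 without the filter. They also stood at 0 of 7 in conditioning minus pain, conditioning under isoflurane minus isoflurane or minus conditioning, and the interaction, where 0.0% of all probe sets was called in each. The whole array gave almost nothing either: the share of the 9520 called was 0.0% after pain, 0.0105% (1 probe set) after isoflurane, 0.0% after conditioning and 0.0% after conditioning under isoflurane, and without the filter it was 0.0063% after isoflurane and 0.0% in the other 3. At an unadjusted p under 0.05, 1 of 7 member probe sets stood out after pain (8.96% of all tested), 0 after isoflurane (5.38%), 1 after conditioning (10.1%) and 0 after conditioning under isoflurane (6.5%). The F test over the 5 groups had 1 of 7 at an unadjusted p under 0.05 (7.35% of all) and 0 called (0.0%). No member's array values separated any treated group from baseline without overlap, and over the array 0.116% (pain), 0.137% (isoflurane), 0.116% (conditioning) and 0.221% (conditioning under isoflurane) of probe sets did. Simulated data for pain minus baseline covered 9520 probe sets. In them, 91 of 100 differences of 1 and 53 of 100 differences of 0.5 on the log2 scale were called. These shares hold where 100 probe sets of each size truly change, which eases the adjusted threshold. On the real arrays 0 of 9520 were called after pain. Homer1 1370454_at, at 0.59 after pain, had an adjusted p of 0.346 (limma). The simulated shares therefore do not give the chance that a member difference of such a size would be called here.

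**Figure D1:**
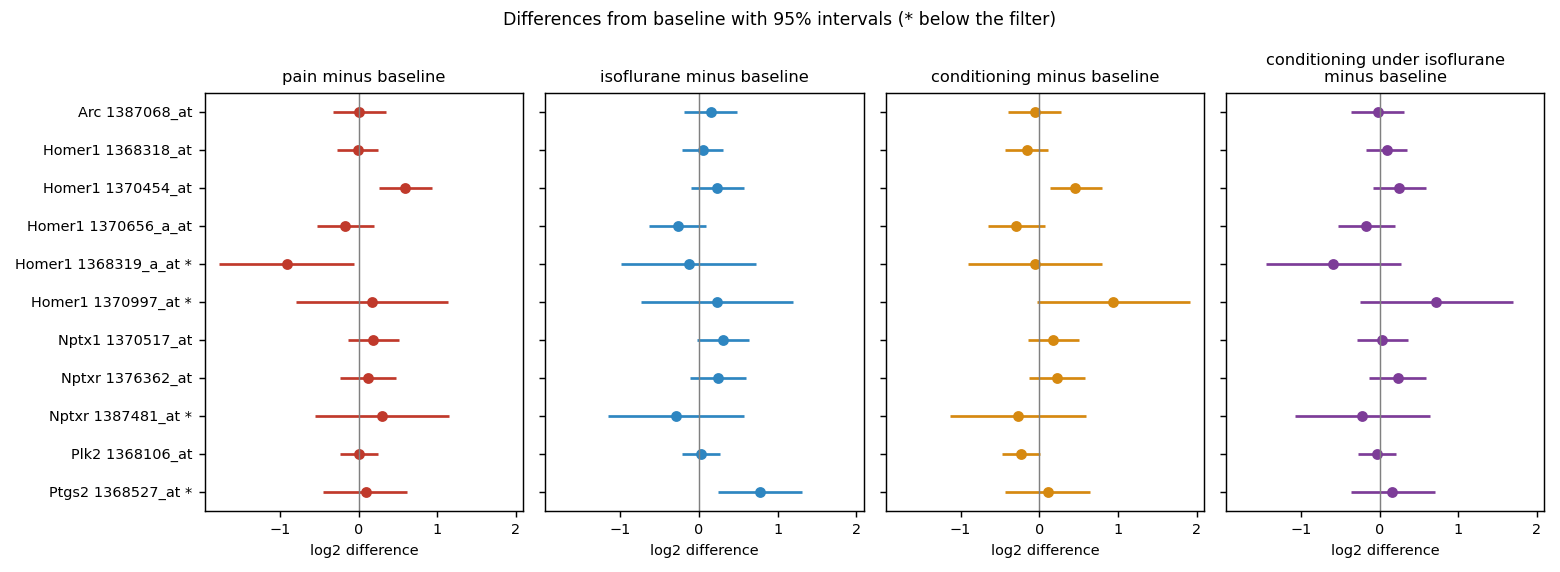
Each point is the log2 difference between a treated group (5 arrays) and baseline (9 arrays) for 1 member probe set, with its 95% interval from the limma fit; rows are probe sets, panels are treated groups, and an asterisk marks probe sets below the filter. Most intervals span 0. Before adjustment, those of Homer1 1370454_at after pain and after conditioning and of Ptgs2 after isoflurane lie above it. That of the dim Homer1 1368319_a_at after pain lies below it (-1.77 to -0.06).

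Arc did not pass the test in any comparison, and its group means lay close together in the fit over all 29 arrays. Values of its probe set (1387068_at) on the log2 scale were 8.90, 9.13, 9.47, 9.12 and 9.75 after pain, 9.33, 9.65, 9.25, 9.21 and 9.59 after isoflurane, 9.23, 9.05, 9.00, 9.63 and 9.09 after conditioning, and 9.21, 9.33, 9.15, 9.41 and 9.10 after conditioning under isoflurane. Baseline arrays ran between 8.62 and 10.07 with a median of 9.33, so the baseline group alone held both the lowest and the highest Arc value of the series.

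The Arc group means followed the order isoflurane (9.41 ± 0.20), pain (9.28 ± 0.34), baseline (9.26 ± 0.42), conditioning under isoflurane (9.24 ± 0.13) and conditioning (9.20 ± 0.26; SD, n = 9 for baseline and 5 otherwise). No gap between neighbours, at most 0.13, exceeded the larger SD of the pair. The log2 difference was 0.15 (SE 0.16) for isoflurane, 0.01 (SE 0.16) for pain, -0.02 (SE 0.16) for conditioning under isoflurane and -0.06 (SE 0.16) for conditioning against baseline. The adjusted p-values (limma) were 0.986 for isoflurane, 0.988 for pain, 0.988 for conditioning under isoflurane and 0.925 for conditioning. The 95% interval for conditioning against baseline, -0.40 to 0.27, gives the precision reached for Arc at 6 h.

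Within baseline, Arc was not evenly spread. Replicates 1 to 5 read 10.07, 9.41, 9.33, 9.46 and 9.47, and replicates 6 to 9 read 8.95, 8.86, 9.18 and 8.62, so each of the first 5 numbers lies above each of the last 4. In deposited signal these were 1054.2, 675.4, 639.7, 702.1 and 709.8 against 492.7, 459.5, 574.1 and 388.6. The split is not confined to Arc. Median deposited signal was 229.8 to 247.8 in replicates 1 to 5 and 210.7 to 229 in replicates 6 to 9. The mean of the red cell markers was 9.29 to 9.68 and 9.95 to 10.19, while the means of the other marker lists overlapped. The labels give no batch for the numbers, and whether one moves with this split was not tested. The Arc differences depend on which baseline arrays are used. In a fit blocked on replicate number, which keeps baseline replicates 1 to 5 and drops the other 4, Arc was at -0.27 after pain, -0.14 after isoflurane, -0.35 after conditioning (unadjusted limma p 0.0447) and -0.31 after conditioning under isoflurane. None passed after adjustment there.

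**Figure D2:**
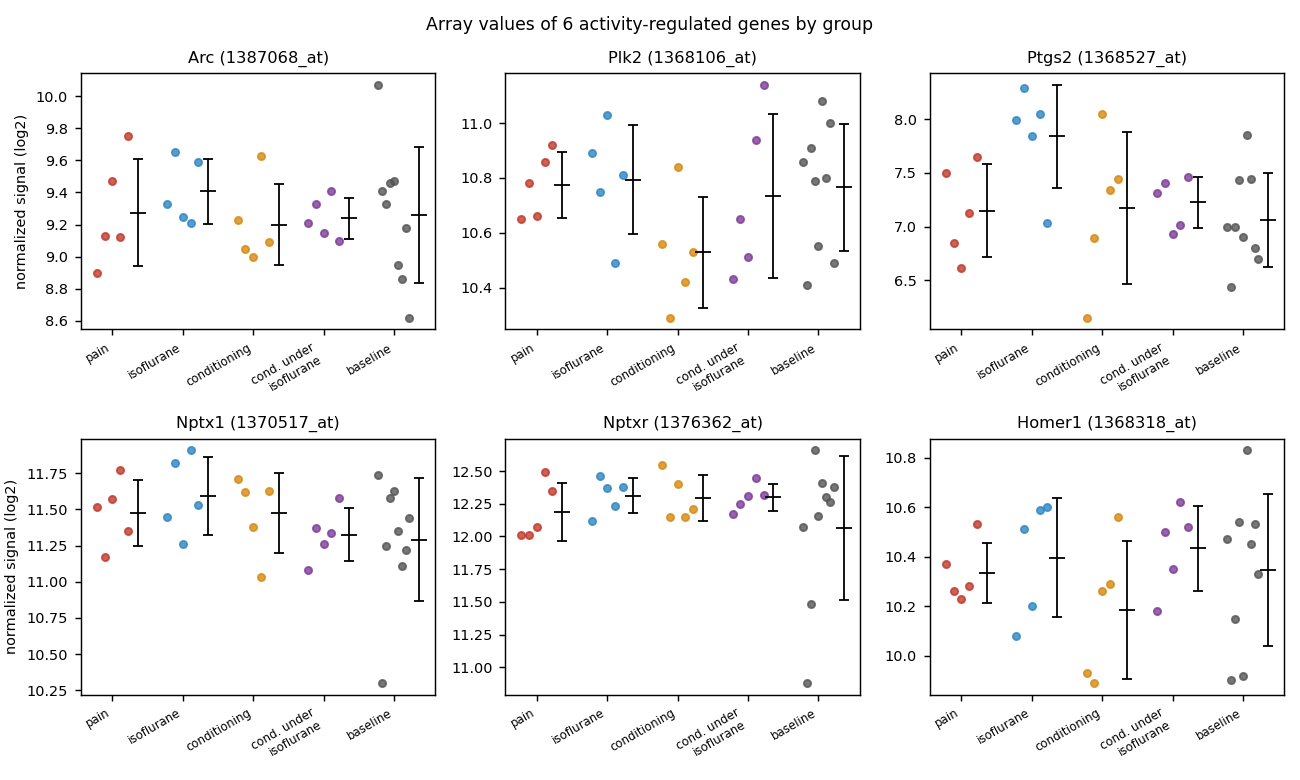
Dots are single arrays (5 per treated group, 9 for baseline) on the normalized log2 scale, and the bar beside each group is its mean ± SD; each panel is 1 gene with its own vertical range. Arc spans 8.62 to 10.07 within baseline alone, Ptgs2 has 4 of 5 isoflurane arrays above the baseline mean, and baseline has single low arrays for Nptx1 (10.3) and Nptxr (10.88).

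Homer1 was the member with the largest differences among tested probe sets, and its probe sets gave unlike values. Probe set 1370454_at read 8.85, 8.76, 9.00, 9.23 and 9.40 after pain and 8.84, 8.67, 9.08, 8.94 and 9.07 after conditioning. It read 8.04, 9.26, 8.47, 8.64 and 9.03 after isoflurane and 8.46, 9.03, 8.79, 8.43 and 8.85 after conditioning under isoflurane. In baseline it ran between 7.78 and 8.80 with a median of 8.52. After pain and after conditioning, 4 of 5 arrays lay above every baseline array and 5 of 5 above the baseline mean, whereas after isoflurane and after conditioning under isoflurane 2 of 5 lay above every baseline array.

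Means of 1370454_at were 9.05 ± 0.27 after pain and 8.46 ± 0.30 in baseline (SD, n = 5 and 9), a log2 difference of 0.59 (SE 0.16, 95% interval 0.26 to 0.93; 1.51-fold). The unadjusted p was 0.00111 and the adjusted p 0.346 (limma), so the difference did not pass the test. After conditioning the mean was 8.92 ± 0.17 (SD, n = 5), a difference of 0.46 from baseline (SE 0.16, adjusted p 0.417, limma). Isoflurane (0.23) and conditioning under isoflurane (0.25) gave smaller values against baseline, with adjusted p of 0.983 and 0.822 (limma). The interaction, which sets the effect of conditioning in anaesthetised rats against that in rats without isoflurane, was -0.44 (SE 0.25, adjusted p 0.959, limma). In the F test this probe set ranked 144 of 9520 by p, with an adjusted p of 0.674 (limma). Leaving out baseline replicates 2 and 3, which stand apart in ways given under Nptxr, moved the pain difference to 0.51 and the conditioning difference to 0.37.

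The other 2 tested Homer1 probe sets gave no such values. Probe set 1368318_at read 10.37, 10.26, 10.23, 10.28 and 10.53 after pain and 9.93, 9.89, 10.26, 10.29 and 10.56 after conditioning, against 9.90 to 10.83 (median 10.45) in baseline. Its differences from baseline were -0.01 after pain, 0.05 after isoflurane, -0.16 after conditioning and 0.09 after conditioning under isoflurane (SE 0.13 each). Probe set 1370656_a_at read 7.98, 8.54, 8.37, 8.55 and 8.83 after pain and 7.98, 7.92, 8.69, 8.57 and 8.48 after conditioning, against 7.95 to 9.17 (median 8.64) in baseline. Its differences were -0.17 after pain, -0.27 after isoflurane, -0.29 after conditioning and -0.17 after conditioning under isoflurane (SE 0.18 each), none past the threshold. This probe set, too, depended on the baseline arrays used: in baseline it read 8.69, 7.95, 8.42, 8.64 and 8.17 in replicates 1 to 5 and 9.17, 8.53, 9.12 and 8.89 in replicates 6 to 9. In the fit that keeps replicates 1 to 5 the differences were 0.08 after pain, -0.02 after isoflurane, -0.05 after conditioning and 0.08 after conditioning under isoflurane.

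The 3 Homer1 probe sets were also set against each other within arrays. This comparison was chosen after the values had been seen, so it is a description and carries no test. The log2 signal of 1370454_at less that of 1370656_a_at was 0.88, 0.22, 0.63, 0.68 and 0.58 after pain and 0.86, 0.75, 0.39, 0.37 and 0.59 after conditioning. It was -0.26, 1.20, 0.33, 0.14 and 0.26 after isoflurane and 0.16, 0.75, 0.35, -0.12 and 0.14 after conditioning under isoflurane. In baseline it ran between -0.73 and 0.40 with a median of -0.16, and all 5 arrays of pain, of conditioning and of conditioning under isoflurane, and 4 of the 5 of isoflurane, lay above the baseline mean. The 3 lowest baseline values were those of replicates 6 (-0.73), 9 (-0.68) and 8 (-0.50).

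The mean of this within-array value differed from baseline by 0.76 after pain, 0.50 after isoflurane, 0.76 after conditioning and 0.42 after conditioning under isoflurane. For 1370454_at less 1368318_at the differences were 0.61 after pain, 0.19 after isoflurane, 0.62 after conditioning and 0.17 after conditioning under isoflurane. For 1368318_at less 1370656_a_at they were 0.15 after pain, 0.32 after isoflurane, 0.13 after conditioning and 0.25 after conditioning under isoflurane.

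The annotation does not say which Homer1 transcript form each probe set reads, so these values are not assigned to the long or the short form. In this array type the ending _a_at marks a probe set that matches more than 1 transcript of the same gene. Over the 29 arrays 1368318_at and 1370656_a_at varied together (Pearson r 0.687), and 1370454_at had r of 0.325 with 1368318_at and 0.113 with 1370656_a_at. For deviations from the group means, which leave out differences between groups, the values were 0.737, 0.54 and 0.356. The kit named for baseline and not for the pain and conditioning arrays runs along with these differences and cannot be told apart from them.

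Both dim Homer1 probe sets were uncertain. Probe set 1368319_a_at read 4.62, 5.15, 4.71, 6.07 and 5.77 after pain, against 4.99 to 7.28 (median 6.47) in baseline, a difference of -0.91 (SE 0.42, unadjusted p 0.0371, adjusted p 0.556, limma without the filter). Probe set 1370997_at read 4.60, 6.66, 5.75, 6.31 and 5.45 after conditioning, against 4.00 to 6.72 (median 4.63) in baseline, a difference of 0.94 (SE 0.47, adjusted p 0.607, limma). Both lie far below the filter, with means of 5.89 and 5.17, and 2 of the 9 baseline values of 1370997_at sit at the floor of 16 signal units. A further probe set is annotated to Homer1 together with another gene and is not counted.

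**Figure D3:**
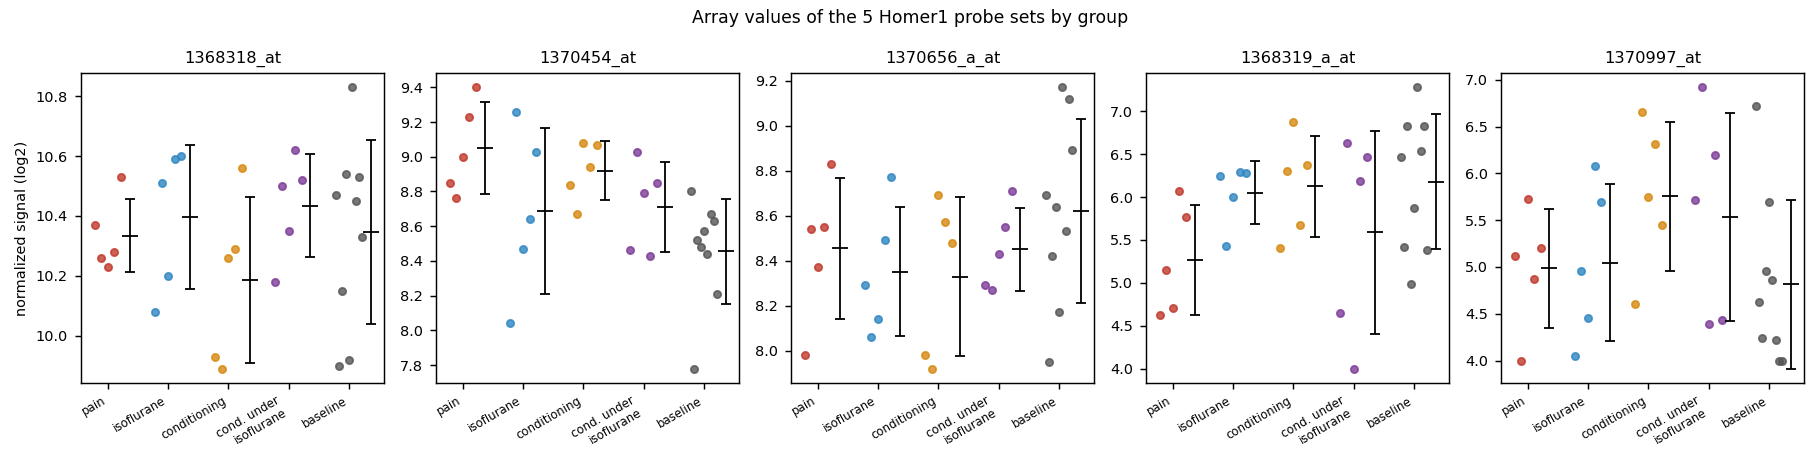
Dots are single arrays (5 per treated group, 9 for baseline) on the normalized log2 scale with the group mean ± SD beside them; each panel is 1 Homer1 probe set, the last 2 below the filter. Only for 1370454_at do 4 of 5 pain and 4 of 5 conditioning arrays lie above every baseline array.

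Neuronal pentraxin 1 (Nptx1, 1370517_at), a secreted protein that clusters AMPA receptors, read 11.52, 11.17, 11.57, 11.77 and 11.35 after pain, 11.45, 11.82, 11.26, 11.91 and 11.53 after isoflurane, 11.71, 11.62, 11.38, 11.03 and 11.63 after conditioning, and 11.08, 11.37, 11.26, 11.34 and 11.58 after conditioning under isoflurane. Baseline ran between 10.3 and 11.74 with a median of 11.35. The groups overlapped throughout, and 1 baseline array lay far below all others.

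The largest Nptx1 difference from baseline was 0.30 after isoflurane (SE 0.16, 95% interval -0.03 to 0.63, adjusted p 0.94, limma). It was 0.18 after pain, 0.18 after conditioning and 0.03 after conditioning under isoflurane. Conditioning under isoflurane was 0.27 below isoflurane alone, with 0 of 5 arrays above the isoflurane mean (difference -0.27, adjusted p 0.998, limma). Without baseline replicates 2 and 3, the values against baseline were 0.16 for isoflurane, 0.04 for pain, 0.04 for conditioning and -0.11 for conditioning under isoflurane.

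The pentraxin receptor (Nptxr, 1376362_at), a membrane-bound pentraxin that anchors its secreted relatives, read 12.01, 12.01, 12.07, 12.49 and 12.35 after pain, 12.12, 12.46, 12.37, 12.23 and 12.38 after isoflurane, 12.55, 12.15, 12.40, 12.15 and 12.21 after conditioning, and 12.17, 12.25, 12.31, 12.45 and 12.32 after conditioning under isoflurane. Baseline ran between 10.88 and 12.66 with a median of 12.26. All treated arrays lay between 12.01 and 12.55, and the baseline group had the widest spread (SD 0.55).

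Against baseline, Nptxr was at 0.12 after pain, 0.24 after isoflurane, 0.22 after conditioning and 0.23 after conditioning under isoflurane (SE 0.17 each, adjusted p between 0.683 and 0.983, limma). These positive values rest on baseline replicates 2 (10.88) and 3 (11.48), the lowest of the 29 arrays. Without both, the differences were -0.14 after pain, -0.01 after isoflurane, -0.03 after conditioning and -0.02 after conditioning under isoflurane. The same arrays had the highest mean of the 8 tested striatal marker probe sets (9.52 for replicate 2 and 10.02 for replicate 3, against at most 9.50 elsewhere) and ranked 28 and 26 of 29 in the mean of the 8 excitatory neuron marker probe sets (10.17 and 10.21). Other arrays near these ends had Nptxr values above both. Pain replicate 2, with a striatal mean of 9.50, had an Nptxr value of 12.01. Pain replicate 1, ranked 27 of 29 in the excitatory mean (10.2), also had 12.01. This was the lowest Nptxr value apart from baseline replicates 2 and 3. Baseline replicate 8, with the lowest excitatory mean (10.14), had an Nptxr value of 12.26. The part of neighbouring tissue in the low Nptxr values was not tested. The second Nptxr probe set, 1387481_at, was dim and gave differences between -0.29 and 0.30 with SE 0.42.

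**Figure D4:**
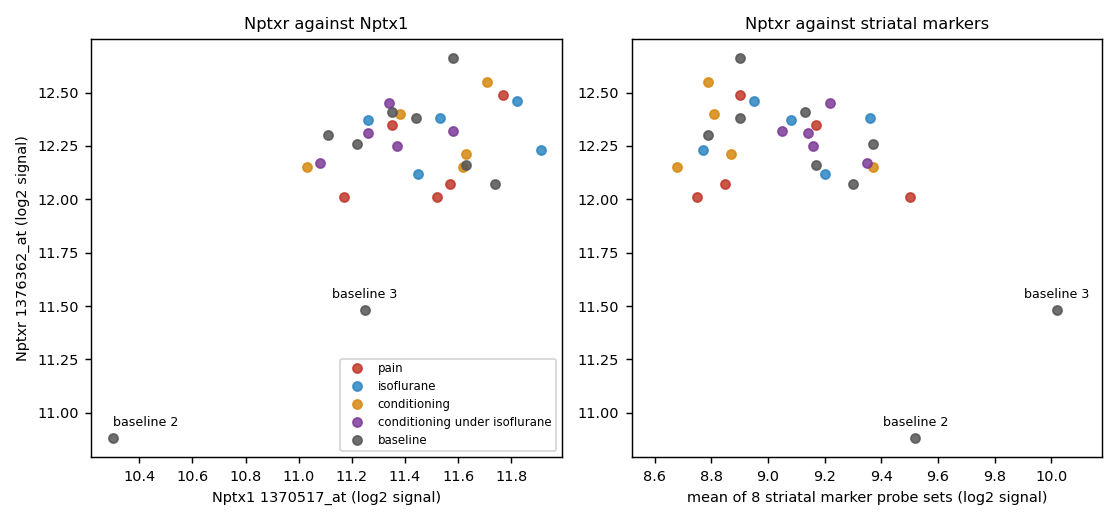
Each dot is 1 of 29 arrays, coloured by group; the vertical axis is the log2 signal of Nptxr, and the horizontal axis is the log2 signal of Nptx1 (left) or the mean log2 signal of 8 striatal marker probe sets (right). Baseline replicates 2 and 3 lie apart at Nptxr values of 10.88 and 11.48.

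Plk2 (1368106_at), a kinase induced by strong activity, was lowest after conditioning. It read 10.56, 10.29, 10.84, 10.42 and 10.53 after conditioning, 10.65, 10.78, 10.66, 10.86 and 10.92 after pain, 10.89, 10.75, 11.03, 10.49 and 10.81 after isoflurane and 10.43, 10.65, 10.51, 10.94 and 11.14 after conditioning under isoflurane. Baseline ran between 10.41 and 11.08 with a median of 10.80. In 4 of 5 conditioning arrays Plk2 was below every pain array, while 1 of 5 was below every baseline array.

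The conditioning mean of Plk2 was 10.53 ± 0.20 and the baseline mean 10.76 ± 0.23 (SD, n = 5 and 9). The difference was -0.23 (SE 0.12, 95% interval -0.48 to 0.01, unadjusted p 0.0551, adjusted p 0.498, limma). Against pain it was -0.24 (SE 0.13, adjusted p 0.567, limma). Pain, isoflurane and conditioning under isoflurane differed from baseline by 0.01, 0.03 and -0.03. Conditioning also carried the highest oligodendrocyte marker values: the 11 tested marker probe sets were all above baseline (median 0.34, 7 at an unadjusted p under 0.05, 0 called), and the 8 striatal ones were all below it (median -0.35, 4 at an unadjusted p under 0.05). Over all tested probe sets of this comparison, 49.9% were above 0 and 10.1% reached an unadjusted p under 0.05. The part of tissue composition in the Plk2 value was not tested.

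Ptgs2 (1368527_at), the inducible cyclooxygenase found in excitatory neurons of the forebrain, was highest after isoflurane. It read 7.99, 8.29, 7.84, 8.05 and 7.03 after isoflurane, 7.50, 6.85, 6.61, 7.13 and 7.65 after pain, 6.15, 6.89, 8.05, 7.34 and 7.44 after conditioning and 7.31, 7.41, 6.93, 7.01 and 7.46 after conditioning under isoflurane. Baseline ran between 6.44 and 7.85 with a median of 7.00. After isoflurane 3 of 5 arrays lay above every baseline array and 1 lay near the baseline mean.

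The isoflurane mean of Ptgs2 was 7.84 ± 0.48 and the baseline mean 7.06 ± 0.44 (SD, n = 5 and 9). The log2 difference was 0.78 (SE 0.26, 95% interval 0.24 to 1.31; 1.72-fold), with an unadjusted p of 0.00612 and an adjusted p of 0.896 (limma without the filter, where 5.5% of probe sets reach an unadjusted p under 0.05). Conditioning under isoflurane differed from baseline by 0.16, and from isoflurane alone by -0.62 (SE 0.30, unadjusted p 0.0471, adjusted p 1.0, limma), with 0 of 5 arrays above the isoflurane mean. The interaction was -0.73 (SE 0.39, adjusted p 0.959, limma). After pain and after conditioning the differences were 0.09 and 0.11. Leaving out single arrays moved the isoflurane difference between 0.67 and 0.98, without a sign change. Both groups with the same kit, isoflurane and baseline, enter the first difference, whereas the comparison with conditioning under isoflurane crosses the kits. Both comparisons set the separately numbered isoflurane arrays against others, so a separate run cannot be told apart from isoflurane in either.

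The order of the group means thus differed from gene to gene. The only gap between neighbouring group means larger than the larger SD of the pair was that of Ptgs2 between isoflurane and conditioning under isoflurane, 0.62. Over all alternative settings, the lowest adjusted p of any of the 88 member differences was 0.219 (limma).

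Across the 29 arrays Pearson r between the 6 genes, taking the brightest probe set of each, ran between -0.113 and 0.631. None of 15 pairs passed after adjustment over the pairs (permutation tests with 100000 resamples, lowest adjusted p 0.0547). Nptx1 and Nptxr had the highest Pearson r (0.631, p = 0.00366; Spearman rho 0.298, p = 0.118), and r was 0.268 (p = 0.18) without the 2 arrays farthest from the Nptx1 median, so that it rests on those arrays. Homer1 had r of 0.484 with Plk2 (rho 0.389), 0.453 with Nptxr (rho 0.434) and 0.449 with Ptgs2 (rho 0.414), with permutation p of 0.00786, 0.0118 and 0.0146. Without the 2 arrays farthest from the Homer1 median these became 0.324, 0.468 and 0.386. That step kept baseline replicates 2 and 3, the lowest in Nptxr. For Homer1 with Nptxr, r was 0.637 within the 14 arrays with a named kit, baseline among them, and 0.06 within the other 15. For Plk2 these were 0.394 and 0.583, and for Ptgs2 0.383 and 0.529. Arc had r between -0.113 and 0.0915 with the other 5 genes. Within the 14 arrays with a named kit and within the 15 without, 0 of 15 pairs passed (lowest adjusted p 0.159 and 0.319). On deviations from the group means, Nptx1 with Nptxr (r 0.628), Homer1 with Nptxr (0.506) and Homer1 with Ptgs2 (0.49) passed. Their adjusted permutation p-values were 0.0276, 0.0307 and 0.0357. On the deposited scaling, Nptx1 with Nptxr and Homer1 with Plk2 passed (adjusted permutation p 0.019 each). Baseline replicate 2, the lowest array for both Nptx1 and Nptxr, stayed in both settings. Neither was run without it, so whether the Nptxr pairs rest on that array was not tested there.

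The genes whose levels ran most like each member were named by their Pearson r over the 29 arrays, as a description without a test. Arc ran most like Stmn1 (r 0.684), Neu2 (0.66) and Fos (0.658), the last an immediate-early transcription factor. Homer1 1368318_at ran most like Klf6 (0.77), an activity-regulated transcription factor, Cnksr2 (0.723) and Zfp697 (0.723). Homer1 1370656_a_at ran most like Tpm3 (0.884), Sv2b (0.832) and Ywhaz (0.786), and Homer1 1370454_at had no gene above Pdzrn3 (0.672). Nptx1 ran most like Crym (0.708), Mef2c (0.673) and Cd24 (0.664). Nptxr ran most like Olfm1 (0.899), Slc17a7 (0.87), the vesicular glutamate transporter of forebrain excitatory neurons, and Slc30a3 (0.851), the synaptic vesicle zinc transporter. The Nptxr values include the low baseline replicates 2 (10.88) and 3 (11.48), and r without them was not computed. Plk2 ran most like Becn1 (0.832), Kcnv1 (0.825) and Atp6v1b2 (0.822), and Ptgs2 like Nog (0.756), Epha4 (0.723) and Tpm1 (0.7).

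Genes known to act with the members were read from 4 lists, and no gene of any list was called in any of the 8 contrasts. Over all tested probe sets the median difference from baseline lay between -0.00254 and 0.00369 in the 4 comparisons, and the share above 0 was 49.2% after pain, 51.0% after isoflurane, 49.9% after conditioning and 51.1% after conditioning under isoflurane. The activity-regulated transcription factors had 15 of 25 genes tested (19 probe sets). After conditioning their median difference from baseline was -0.07, with 5 probe sets above 0 and 14 below, 2 higher and 2 lower at an unadjusted p under 0.05 (4 of 19, against 10.1% of all tested). Those were Nr4a3 (0.44) and Crem (0.77) above, and Egr1 (-0.35) and Junb (-0.32) below baseline, with adjusted p between 0.415 and 0.464 (limma). After isoflurane the median was 0.07, with 12 of 19 above 0. After pain it was -0.04 and after conditioning under isoflurane -0.09.

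Other activity-regulated effectors had 18 of 30 genes tested (21 probe sets). Their median was -0.18 after conditioning (16 of 21 below 0), against 0.03 after pain, 0.06 after isoflurane and -0.04 after conditioning under isoflurane. Plat, the tissue plasminogen activator, had 0.67 after conditioning (SE 0.21, adjusted p 0.415, limma), 0.72 after isoflurane (SE 0.21, adjusted p 0.724) and 0.53 after conditioning under isoflurane (SE 0.21, adjusted p 0.692). Rheb, an activator of mTOR signalling, had -0.18 after conditioning (SE 0.06, adjusted p 0.415, limma), and the peptide gene Adcyap1 had -0.70 (SE 0.29, adjusted p 0.45). Rgs2, a regulator of G-protein signalling, had -0.47 (SE 0.21, adjusted p 0.473, limma) in the lower-p probe set of 2 tested. Its other probe set did not reach an unadjusted p under 0.05 (limma).

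The receptors and scaffolds that Arc, Homer1 and the pentraxins act on had 22 of 27 genes tested (32 probe sets). Their medians against baseline were 0.02 after pain, -0.02 after isoflurane, 0.02 after conditioning and 0.00 after conditioning under isoflurane. Dlgap1, a postsynaptic scaffold, had 0.28 after conditioning (SE 0.08, adjusted p 0.415, limma) and 0.20 after pain and after isoflurane. These values are from its probe set with the lowest p, of 3 tested. The others did not reach an unadjusted p under 0.05 (limma) in these comparisons. The AMPA receptor subunit Gria2 had 0.20 after conditioning (SE 0.08, adjusted p 0.419, limma) in 1 of its 2 tested probe sets. Its other probe set did not reach an unadjusted p under 0.05 (limma). The NMDA receptor subunit Grin1 had -0.24 after conditioning (SE 0.10, adjusted p 0.464, limma). Among the partners of Plk2 and of prostaglandin signalling, 12 of 28 genes were tested (17 probe sets), with medians of 0.00 after pain, -0.09 after isoflurane, 0.00 after conditioning and -0.07 after conditioning under isoflurane. Ptger3, a prostaglandin E receptor, had -0.56 after conditioning (SE 0.24, adjusted p 0.45, limma), and Mgll, which frees arachidonic acid from an endocannabinoid, had -0.46 after isoflurane (SE 0.18, adjusted p 0.922, limma). The Mgll value is that of its probe set with the lowest p, of 3 tested. The others did not reach an unadjusted p under 0.05 (limma).

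Tissue identity was read from marker lists. Of 8 excitatory projection neuron markers, 6 were tested and their mean lay between 10.14 and 10.69 on every baseline array; Neurod6 had no probe set, and Tbr1, a transcription factor of pallial projection neurons, fell below the filter. Astrocyte markers were above baseline after conditioning in 13 of 13 probe sets (median 0.17), and red cell markers were below it after pain in 2 of 2 (median -0.95), with 0 called. Signal per array was even in scale, with a trimmed mean between 500.08 and 500.12, while medians ran between 210.7 and 292.2. Pain replicate 3 had the highest median and the lowest agreement with the other arrays (median r 0.907). The members' pain differences without any single pain array stayed short of the threshold.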

How the data were processed

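The authors' deposited table holds 1 linear intensity value per probe set and array, scaled per array by the authors as the values show; the software and genome build are not given in the sources used here. Medians differed by 0.47 on the log2 scale, so the deposited signals were quantile normalized over 29 arrays, floored at 16 and log2-transformed. After 57 control probe sets were left out, 15866 of 15923 remained, of which 12783 carry 1 symbol, 312 several and 2771 none in the platform annotation. Matching by gene ID to the GRCr8 table succeeded for 12748 and changed 0 symbols. The filter kept the 9520 probe sets whose mean log2 value reached the 40th percentile (7.26).

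Each was fitted with limma 3.58.1 in R 4.3.3 (lmFit, eBayes with a variance trend), with 1 mean per group, 7 contrasts of 2 groups, 1 interaction and an F test on 4 degrees of freedom, and Benjamini-Hochberg adjustment at 0.05. The number of arrays limits the precision. Permutation tests of correlations used numpy 2.4.6, with the ranks for Spearman rho from scipy 1.17.1. The fit was tested on simulated data, where it made 10 false calls beside the 200 changed probe sets. Named genes are every member, the genes of each list with the lowest p per direction and comparison (at most 3), and the 3 genes most like each member. A list gene with several tested probe sets is given through the one with the lowest p in that direction. The members and lists were chosen with earlier results of these data known. Same-numbered arrays were checked for pairing: over 50 pairs their deviations correlated between -0.238 and 0.259, so they were not treated as pairs. Alternatives covered scaling, floor, filter, variance trend, the samples in the fit and each array left out.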

Additional observations from a re-analysis of the deposited data

Results flagged for a closer look

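Of 55 groups of array values checked for 1 array far from the others, 1 stood out, and chance alone would mark about 5% of groups. Nptx1 (1370517_at) read 10.3 in baseline replicate 2, against 11.11 in the next lowest baseline array and 11.74 in the highest, so that the gap covers 0.56 of the group's range. The same array had the lowest Nptxr value (10.88) and the second highest striatal marker mean (9.52) of the 29 arrays. Without baseline replicates 2 and 3 the Nptx1 difference of isoflurane from baseline was 0.16 in place of 0.30.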

How the results depend on the processing

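Over 3650 alternative values of the 99 member results, none of the member differences or F tests passed the threshold, and a sign was counted as a direction only where a difference exceeded its standard error. In 3 cases a difference of that size changed sign, each time to a value near 0 and below its standard error. They are those of Nptxr 1376362_at without baseline replicates 2 and 3, an alternative chosen after seeing the data: -0.01 for isoflurane, -0.03 for conditioning and -0.02 for conditioning under isoflurane against baseline.

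Counts of called probe sets over the whole array moved from few to few. Pain minus baseline, at 0, gave 10 with median centring of each array (which shifts the median of all differences by -0.111, with 182 higher and 1317 lower at an unadjusted p under 0.05, against 412 and 441), 4 with a filter at the 70th percentile and 7 without baseline replicates 2 and 3, and between 0 and 6 when single arrays were left out. Isoflurane minus baseline, at 1, gave 0 with median centring, with the replicate block and with only the groups compared, and 0 to 1 when single arrays were left out. Conditioning minus pain, at 0, gave 2 without the variance trend, and 0 to 3 when single arrays were left out. The F test, at 0, gave 2 without the filter, and 0 to 1 when single arrays were left out. Member pairs passing, at 0, became 3 on deviations from group means and 2 on the deposited scaling. The cause of these moves was not tested. With the replicate block 0 probe sets were called in every comparison; since the numbers do not pair the samples, a call lost there is not read as a weaker effect. Dim probe sets limit the most: the standard error of 1370997_at against baseline was 0.47.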
